A study of Homo sapiens with 6 samples.

Results

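The genes described here encode the subunits of the transcription factor NF-kB, its inhibitors and 2 feedback or target genes, measured in Y79 retinoblastoma cells whose MYCN transcript was targeted by a short hairpin RNA (shRNA). The 10 members were taken by gene symbol, with no filter on their values but with earlier results of these data known. They are NFKB1, NFKB2, REL, RELA, RELB, NFKBIA, NFKBIB, NFKBIE, TNFAIP3 and CD83. All 10 were found among the 17013 genes of the count table. Y79 is an established human retinoblastoma line, kept in suspension culture, in which the MYCN gene is amplified. MYCN encodes a transcription factor of the MYC family. Cells received MYCN-targeting shRNA (labelled MYCN knockdown, 3 libraries) or control shRNA (labelled MYCN wild-type, 3 libraries), both by transduction, and poly(A)-selected RNA was sequenced from both ends. The series text calls the libraries independent biological replicates, all lie in 1 labelled batch, and the number of hairpins is not given in the sources used here.

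NF-kB is a dimer of Rel family proteins. In resting cells IkB proteins hold it in the cytoplasm, and signals from receptors such as those for TNF activate the IKK kinase complex, which marks IkB for destruction and frees the dimer to enter the nucleus. Several genes of the pathway, NFKBIA and TNFAIP3 above all, are themselves targets of NF-kB and form a negative feedback loop.

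Total estimated counts were 15490263 to 15762707 per library with MYCN shRNA and 15515994 to 16078416 with control shRNA. Levels are given as CPM, counts divided by a library size that was adjusted by the trimmed mean of M-values (TMM). MYCN itself measured 2413, 2284 and 2195 CPM with MYCN shRNA, against 3046, 3128 and 2876 CPM with control shRNA. The groups did not overlap, and the log2 fold change of MYCN was -0.39 ± 0.0432 (± SE here and below; adjusted p = 8.0e-11, edgeR), so the transcript was lower but still abundant. Markers of the labelled cell type were present: all 10 photoreceptor and retinoblastoma markers, CRX and OTX2 among them, were at 1 CPM or more, with a summed level of 2041 to 2095 CPM with MYCN shRNA and 2075 to 2193 CPM with control shRNA. Within this sum the markers moved apart, with 7 of 10 higher and 3 lower (edgeR, median log2 fold change 1.41), beside 38.0% and 37.9% of all genes tested. PDE6H was at 189.2 to 193.9 CPM with MYCN shRNA and 49.4 to 53.3 CPM with control shRNA, whereas OTX2 was at 668.7 to 685.5 CPM with MYCN shRNA and 1058 to 1107 CPM with control shRNA. The part of these moves in the results on the members was not tested. In bulk RNA, fewer cells of a type and less RNA per cell cannot be told apart.

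Of the 10 members, 9 passed the filter on low counts, and 6 of them rose with MYCN shRNA while 1 fell (edgeR quasi-likelihood test, adjusted p under 0.05 over 12819 genes). RELB, NFKBIA, NFKB2 and CD83 had the largest increases, REL and RELA rose by less, and NFKBIB fell. Most genes of these cells differed between the groups: 75.8% of all genes tested passed, 38.0% higher and 37.9% lower, so 7 members called of 9 is close to the share over all genes. The libraries of the groups did not overlap for 7 of the 9 tested members and for 76.8% of all genes tested. The median log2 fold change was 0.30 over the 9 tested members and 0.00 over all genes, whose quartiles were -0.37 and 0.40. TMM scaling sets this balance: with library sizes alone, 6597 genes were higher and 3348 lower, against 4865 and 4857 with TMM, and the median over all genes was 0.19.

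**Figure D1:**
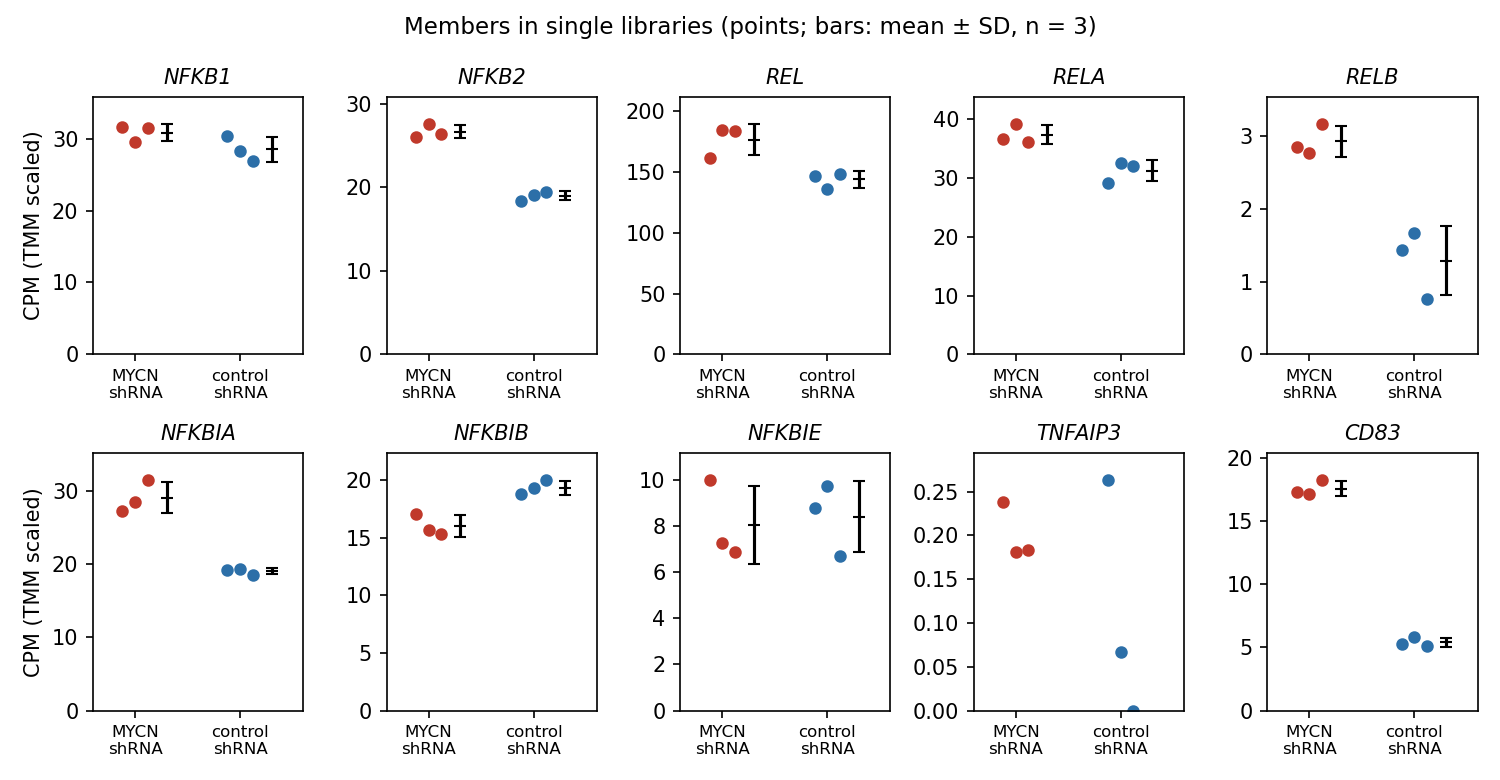
Level of each member in CPM (vertical axes, TMM scaled, each from 0) in the 3 MYCN shRNA libraries and the 3 control shRNA libraries; points are libraries and bars the mean ± SD, left out for TNFAIP3, which rests on 0 to 4 counts per library. The groups are separated for NFKB2, REL, RELA, RELB, NFKBIA, NFKBIB and CD83 and overlap for NFKB1, NFKBIE and TNFAIP3.

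Promoter sequence is shown because several members are known targets of NF-kB, which binds kappaB motifs. A match describes the letters in a window and was not tested for binding. RefSeq promoter windows (GRCh38.p14, from 250 bases before to 50 bases after each annotated start) matched 8 of the 10 members by symbol, with 14 windows in all. RELB and NFKBIE had no window. Both strands were searched for the 10-base kappaB consensus, and overlapping matches were counted once. The consensus was found for 7 of the 8 members and for 13.3% of the 27305 genes in the table (11.3% of 35116 windows), with RELA the exception; 8 of the 14 windows held a match, and NFKB1, NFKB2, NFKBIB and CD83 each also had a window without any. There were 14 sites in the members' windows, 13 of them before the RefSeq start of their own window. That start can lie inside the gene span given below, which is from GENCODE 29. The sites of NFKB2, REL, NFKBIB, TNFAIP3 and CD83 lie inside these spans, and only those of NFKB1 and NFKBIA lie upstream. These 13 sites are printed on the strand of the gene with the match in capitals and 10 bases on either side. The position given is that of the first matched base relative to the RefSeq start of its window.
NFKB1, chr4:102501300-102501329, + strand, position -49: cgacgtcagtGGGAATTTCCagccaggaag
NFKB2, chr10:102394461-102394490, + strand, position -107: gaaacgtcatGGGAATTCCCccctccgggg
NFKB2, chr10:102394490-102394519, + strand, position -78: gggccgagaaGGGGCTTTCCcggccctgag
NFKB2, chr10:102395519-102395548, + strand, position -176: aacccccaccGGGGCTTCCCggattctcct
NFKB2, chr10:102395674-102395703, + strand, position -21: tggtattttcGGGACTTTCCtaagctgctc
REL, chr2:60881517-60881546, + strand, position -47: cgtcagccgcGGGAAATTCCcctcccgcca
NFKBIA, chr14:35404811-35404840, - strand, position -81: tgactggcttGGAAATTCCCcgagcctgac
NFKBIB, chr19:38899931-38899960, + strand, position -28: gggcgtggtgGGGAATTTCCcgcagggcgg
TNFAIP3, chr6:137867182-137867211, + strand, position -67: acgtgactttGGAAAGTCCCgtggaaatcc
TNFAIP3, chr6:137867194-137867223, + strand, position -55: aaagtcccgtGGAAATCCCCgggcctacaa
CD83, chr6:14117628-14117657, + strand, position -134: ggcggggacgGGGGCGCCCCggcctaagcg
CD83, chr6:14117686-14117715, + strand, position -76: gctgcccgccGGGGAATCCCccgggctggc
CD83, chr6:14117711-14117740, + strand, position -51: ctggcgcgcaGGGAAGTTCCcgaacgcgcg

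Longer stretches are given for NFKBIA and NFKB2, which both rose. They hold the NFKBIA site and the NFKB2 sites at -176 and -21, and lie outside the exons of GENCODE 29 apart from 1 base of the NFKB2 stretch. Capitals mark the kappaB matches.
NFKBIA, chr14:35404750-35404999, - strand, the 250 bases before the start: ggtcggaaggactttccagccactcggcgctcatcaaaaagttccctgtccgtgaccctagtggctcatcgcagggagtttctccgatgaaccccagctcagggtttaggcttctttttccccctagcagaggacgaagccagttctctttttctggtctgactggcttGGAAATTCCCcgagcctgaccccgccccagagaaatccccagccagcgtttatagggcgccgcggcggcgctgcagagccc
NFKB2, chr10:102395515-102395693, + strand, 179 bases from -190 to -12 of its start at base 102395705: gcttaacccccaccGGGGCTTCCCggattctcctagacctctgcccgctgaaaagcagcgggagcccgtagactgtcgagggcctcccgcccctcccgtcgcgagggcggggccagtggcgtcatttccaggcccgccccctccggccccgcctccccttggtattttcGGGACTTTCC

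Among the tested members with a window, matches were found both in members that rose and in members that did not. Only RELA lacked a match and RELB and NFKBIE had no window, so a separation could hardly have been seen. NFKBIB, the member that fell, and NFKB1, which did not pass the test, each hold a site within 50 bases before a RefSeq start. RELA, in contrast, rose with no match in its windows. A shorter pattern, GGGNNNNCC on either strand, was found for 7 of the 8 members and for 55.9% of all genes in the table. A match to the 10-base consensus need not match it: here RELA held the pattern and NFKBIA was the exception. CACGTG, the preferred binding sequence of MYC proteins, was found only in TNFAIP3 among the 8 members, and in 8.77% of all genes in the table. The windows of the members were rich in G and C (37.0% to 81.3%, with 13 of 14 windows above 50%), and the kappaB patterns are themselves rich in G.

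**Figure D2:**
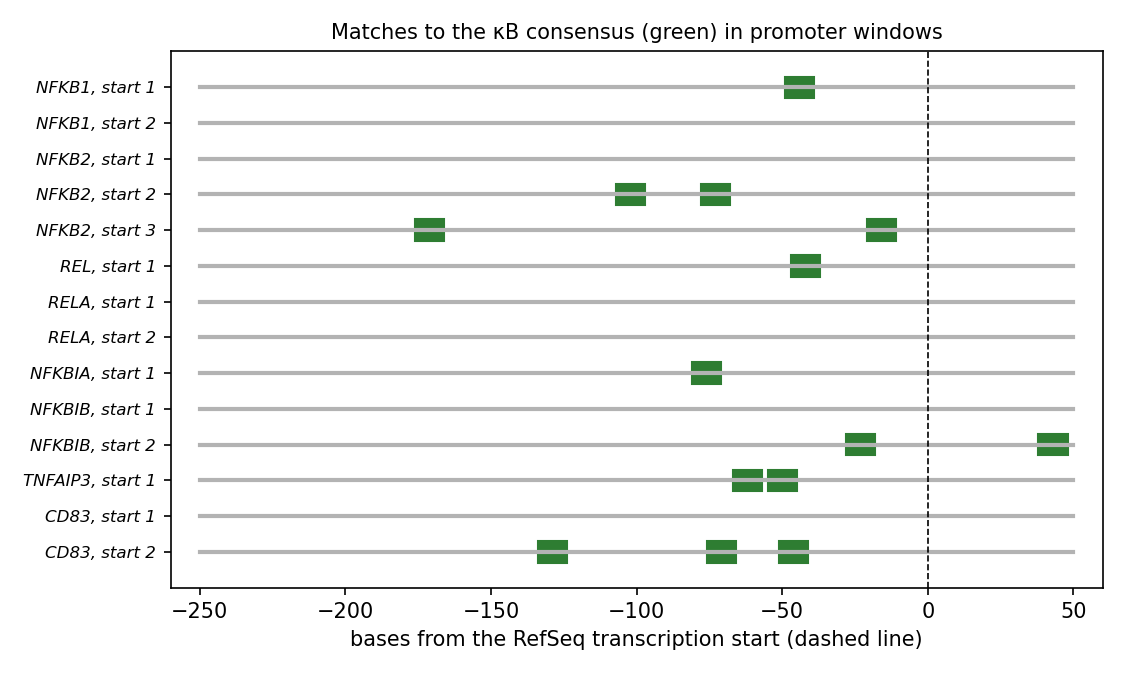
Matches to the 10-base kappaB consensus (green bars, overlapping matches drawn once) in the 14 RefSeq promoter windows of 8 members. Distance is in bases from the RefSeq start of each window (dashed line). NFKB2 and CD83 hold the most sites, 4 and 3, and RELA holds none.

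Among the Rel proteins that carry a transactivation domain, RELB changed most. RELB (chromosome 19, 45001430 to 45038198, GRCh38), the partner of p52 in the alternative pathway, had 48, 46 and 52 counts with MYCN shRNA, against 22, 25 and 11 counts with control shRNA. In CPM this was 2.86, 2.77 and 3.17 with MYCN shRNA, against 1.44, 1.67 and 0.763 with control shRNA. Every MYCN shRNA library lay above every control library, and control replicate 3 was the lowest. RELB rose by 1.17 ± 0.228 on the log2 scale, or 2.25-fold (edgeR adjusted p = 1.5e-05), and the log2 fold change was 0.91 without control replicate 3. Its pooled counts, 146 with MYCN shRNA and 58 with control shRNA, gave a depth-scaled ratio of 2.26 with an exact 95% interval of 1.65 to 3.12, which covers counting error only.

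REL (chromosome 2, 60881521 to 60931610), which encodes c-Rel and is best known from lymphocytes, was the member with the most counts. It measured 161.9, 184.7 and 183.6 CPM with MYCN shRNA, against 147.0, 136.2 and 148.8 CPM with control shRNA. The groups did not overlap, although MYCN shRNA replicate 1 lay nearer to the controls than to its own group. REL rose by 0.30 ± 0.046 on the log2 scale (edgeR adjusted p = 5.3e-07). Its estimated counts were not whole numbers in any of the 6 libraries, as happens when reads are divided between sequences, and 5702 of its exonic bases are shared with an annotated noncoding transcript on the same strand that was not analysed here.

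RELA (chromosome 11, 65653596 to 65663094) encodes p65, the transactivating subunit of the classical NF-kB dimer. It measured 36.7, 39.2 and 36.2 CPM with MYCN shRNA, against 29.2, 32.6 and 32 CPM with control shRNA. The groups lay close together but did not overlap, and RELA rose by 0.26 ± 0.0623 on the log2 scale (edgeR adjusted p = 3.1e-04). It shares 9 exonic bases with an annotated noncoding gene on the opposite strand that was not analysed here. The log2 fold changes of REL and RELA both lay between the quartiles of all genes tested.

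The genes of the precursor subunits differed in size of change. NFKB2 (chromosome 10, 102394110 to 102402529) encodes p100, which is processed to p52 and also retains RELB in the cytoplasm. It measured 26.1, 27.6 and 26.4 CPM with MYCN shRNA, against 18.4, 19.1 and 19.5 CPM with control shRNA. The groups were well apart, and NFKB2 rose by 0.49 ± 0.0711 on the log2 scale, or 1.41-fold (edgeR adjusted p = 5.4e-08). NFKB1 (chromosome 4, 102501329 to 102617302), which encodes p105 and its product p50, measured 31.6, 29.5 and 31.5 CPM with MYCN shRNA, against 30.4, 28.3 and 26.9 CPM with control shRNA. These groups overlapped, and the log2 fold change of 0.11 ± 0.0655 did not pass the test (edgeR adjusted p = 0.113). It passed with upper quartile scaling (0.15, edgeR adjusted p = 0.0369) and with library sizes alone (0.29, edgeR adjusted p = 1.7e-04).

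**Figure D3:**
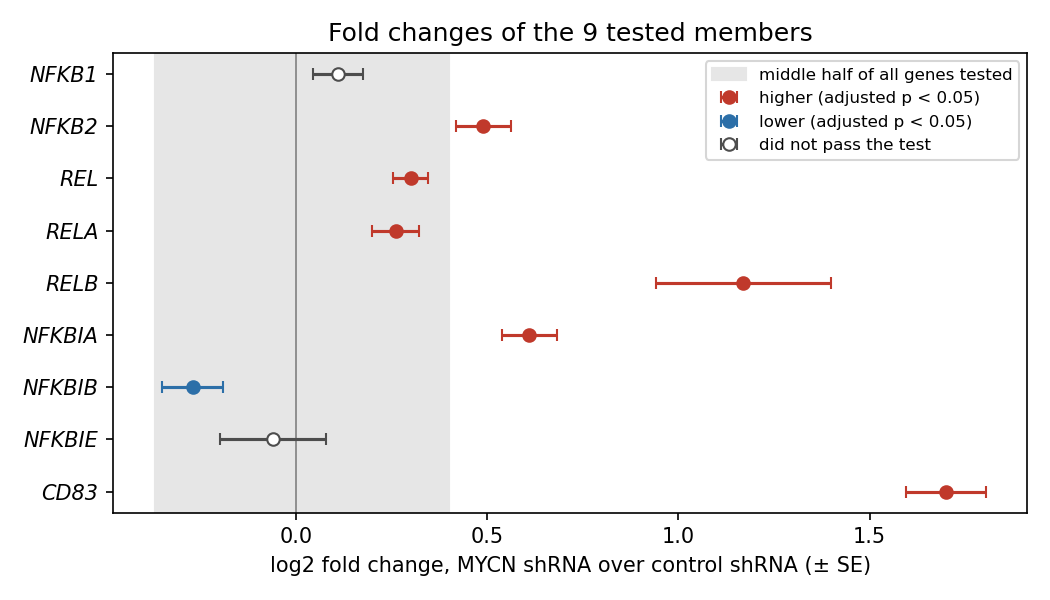
Log2 fold change (horizontal axis, MYCN shRNA over control shRNA, ± SE) of the 9 tested members; filled points passed the edgeR test at adjusted p under 0.05, and the grey band runs between the quartiles of all 12819 genes tested (-0.37 to 0.40). CD83 (1.70), RELB (1.17), NFKBIA (0.61) and NFKB2 (0.49) lie to the right of the band.

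The classical IkB genes did not change alike. NFKBIA (chromosome 14, 35401511 to 35404749) encodes IkB-alpha, the main inhibitor of dimers that contain RELA. It measured 27.3, 28.6 and 31.5 CPM with MYCN shRNA, against 19.2, 19.4 and 18.6 CPM with control shRNA. The controls were tightly grouped and every MYCN shRNA library lay above them. NFKBIA rose by 0.61 ± 0.0722 on the log2 scale, or 1.53-fold (edgeR adjusted p = 5.3e-10), which is higher than the log2 fold change of 82.7% of all genes tested.

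NFKBIB (chromosome 19, 38899700 to 38908893), which encodes IkB-beta, measured 17.1, 15.7 and 15.3 CPM with MYCN shRNA, against 18.8, 19.3 and 20 CPM with control shRNA. All MYCN shRNA libraries lay below the controls, and NFKBIB fell by 0.27 ± 0.0801 on the log2 scale (edgeR adjusted p = 0.00275). With library sizes alone the log2 fold change was -0.09 and the call was lost (edgeR adjusted p = 0.327). Its estimated counts were not whole numbers in 3 of the 6 libraries. NFKBIB shares 40 exonic bases with SIRT2 on the opposite strand, and without a stated strand setting reads there cannot be assigned. SIRT2 rose, with 30.5 ± 0.469 CPM with MYCN shRNA and 23.2 ± 0.127 CPM with control shRNA (SD, n = 3 each), a log2 fold change of 0.40 (edgeR adjusted p = 9.7e-07).

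NFKBIE (chromosome 6, 44258166 to 44265788), which encodes IkB-epsilon, measured 10, 7.30 and 6.89 CPM with MYCN shRNA, against 8.80, 9.74 and 6.72 CPM with control shRNA. The groups overlapped over nearly their whole range, and the log2 fold change of -0.06 ± 0.139 did not pass the test (edgeR adjusted p = 0.691). TNFAIP3 (chromosome 6, 137867188 to 137883312), which encodes the ubiquitin-editing enzyme A20, a feedback inhibitor upstream of IKK, was near the detection limit. It had 4, 3 and 3 counts with MYCN shRNA, against 4, 1 and 0 counts with control shRNA, and was not tested. The pooled 10 and 5 counts gave a ratio of 1.79 with an exact 95% interval of 0.558 to 6.69, so a difference was not detectable at this depth. It shares 95 exonic bases with an annotated antisense gene that was not analysed here.

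CD83 (chromosome 6, 14117256 to 14136918) encodes a surface protein known from mature dendritic cells and is a known NF-kB target. It measured 17.3, 17.1 and 18.2 CPM with MYCN shRNA, against 5.25, 5.80 and 5.13 CPM with control shRNA. The groups were far apart relative to the spread within them, and CD83 rose by 1.70 ± 0.104 on the log2 scale, or 3.25-fold (edgeR adjusted p = 1.7e-18), higher than the log2 fold change of 96.3% of all genes tested. All 9 myeloid and microglial markers measured were under 1 CPM in every library, with a summed level of 0.833 to 1.21 CPM with MYCN shRNA and 1.00 to 1.39 CPM with control shRNA. CD14, PTPRC and CSF1R were among them. The 6 lymphocyte and dendritic cell markers measured summed to 8.87 to 9.64 CPM with MYCN shRNA and 6.34 to 7.02 CPM with control shRNA, and 3 of them were under 1 CPM in every library. Of the 4 that were tested, 2 rose, 1 fell and 1 did not pass (edgeR, median log2 fold change 0.07), beside 38.0% higher and 37.9% lower over all genes. FLT3 rose, with 3.20 ± 0.191 CPM with MYCN shRNA and 1.23 ± 0.313 CPM with control shRNA, and CD4 fell, with 0.262 ± 0.0955 CPM with MYCN shRNA and 0.897 ± 0.0641 CPM with control shRNA (SD, n = 3 each). Their part in the CD83 result was not tested.

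Other marker lists also moved between the groups. Endothelial markers summed to 31.3 to 35.0 CPM with MYCN shRNA and 3.93 to 4.66 CPM with control shRNA, which was almost wholly VWF (33.4 ± 2.06 CPM with MYCN shRNA and 4.32 ± 0.345 CPM with control shRNA; SD, n = 3 each), while KDR had 0 counts in all libraries. PECAM1, also endothelial, was at 0.238 to 0.362 CPM with MYCN shRNA and 0 to 0.0693 CPM with control shRNA. Müller glia and astrocyte markers summed to 558.5 to 567.6 CPM with MYCN shRNA and 330.9 to 364.8 CPM with control shRNA, carried by VIM, with RLBP1, GFAP and AQP4 under 1 CPM in every library. CLU was at 30.7 to 35.6 CPM with MYCN shRNA and 15.7 to 16.9 CPM with control shRNA. Of the 3 tested genes of this list, 2 rose, 0 fell and 1 did not pass (edgeR). Fibroblast markers summed to 5.06 to 6.43 CPM with MYCN shRNA and 2.22 to 2.67 CPM with control shRNA, with DCN and LUM under 1 CPM in every library. COL1A1 was at 2.20 to 3.27 CPM with MYCN shRNA and 0.919 to 1.25 CPM with control shRNA, and COL1A2 at 1.45 to 2.14 and 0.333 to 0.591 CPM. Here too 2 of 3 tested genes rose, 0 fell and 1 did not pass (edgeR). Over all genes tested 38.0% were higher and 37.9% lower. The part of these marker lists in the results on the members was not tested.

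Ratios of estimated counts within a library do not depend on scaling between libraries, and they differed for several pairs of members. The ratio of NFKBIA to RELA, the inhibitor to its main partner, was 0.744, 0.731 and 0.869 with MYCN shRNA, against 0.656, 0.595 and 0.582 with control shRNA. The ratio of NFKBIA to NFKBIB was 1.59, 1.82 and 2.06 with MYCN shRNA, against 1.02, 1.00 and 0.934 with control shRNA. In control libraries these IkB genes thus had nearly equal counts, and in MYCN shRNA libraries NFKBIA had more, without overlap.

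Among the subunits, the ratio of NFKB2 to NFKB1 averaged 0.866 ± 0.0612 with MYCN shRNA and 0.668 ± 0.0600 with control shRNA (SD, n = 3 each), and that of RELB to RELA 0.0787 ± 0.00842 with MYCN shRNA and 0.0415 ± 0.0153 with control shRNA (SD, n = 3 each). Neither ratio overlapped between the groups. Both set an alternative pathway gene over a classical one, but the activity of either pathway was not tested. RELB had only 11 to 52 counts per library. The ratio of REL to RELA averaged 4.73 ± 0.325 with MYCN shRNA and 4.62 ± 0.429 with control shRNA (SD, n = 3 each), and its groups overlapped. Of the other ratios computed, that of NFKBIE to NFKBIA overlapped (0.280 ± 0.0771 with MYCN shRNA and 0.440 ± 0.0724 with control shRNA). That of CD83 to RELA did not (0.470 ± 0.0324 with MYCN shRNA and 0.173 ± 0.0108 with control shRNA). For single genes, the groups did not overlap for 76.8% of all genes tested, and the share over all pairs of genes was not computed. The ratios are descriptions, with no test.

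**Figure D4:**
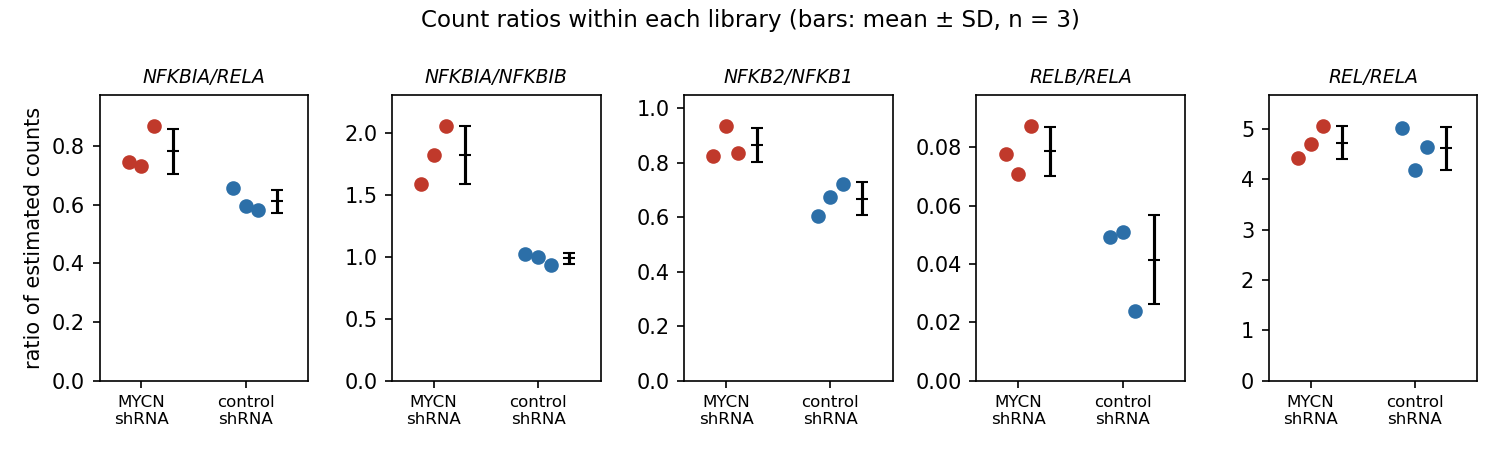
Ratios of estimated counts between members within each library (vertical axes, from 0); points are libraries and bars the mean ± SD of 3. NFKBIA/RELA, NFKBIA/NFKBIB, NFKB2/NFKB1 and RELB/RELA are separated between MYCN shRNA and control shRNA, and REL/RELA overlaps.

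Levels were compared between genes only per kilobase of transcript, with 1 GENCODE 29 protein-coding transcript per gene. With MYCN shRNA, NFKBIA led with 18.7 ± 1.38 CPM per kilobase (SD, n = 3), followed by REL (15.7 ± 1.14), NFKBIB (13.9 ± 0.823), RELA (13.8 ± 0.595), NFKB2 (8.61 ± 0.264), NFKB1 (7.56 ± 0.293), CD83 (7.10 ± 0.227), NFKBIE (3.12 ± 0.653), RELB (1.28 ± 0.0916) and TNFAIP3 (0.0424 ± 0.00683). In this order the libraries of REL and NFKBIB, of NFKBIB and RELA, and of NFKB1 and CD83 overlapped. With control shRNA, NFKBIB led with 16.7 ± 0.514 CPM per kilobase (SD, n = 3), and REL (12.8 ± 0.609), NFKBIA (12.2 ± 0.249) and RELA (11.6 ± 0.673) followed. The libraries of REL and NFKBIA overlapped, and so did those of NFKBIA and RELA. NFKB1 (6.98 ± 0.431), NFKB2 (6.12 ± 0.179), NFKBIE (3.26 ± 0.597), CD83 (2.18 ± 0.145), RELB (0.563 ± 0.205) and TNFAIP3 (0.0232 ± 0.0288) came below them. NFKBIB led in the controls only with its transcript of 1159 bases. With its longest transcript of 1929 bases its level ranked 3 among the members.

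The genes whose log2 CPM followed a member most closely over the 6 libraries were sought among those with a log2 fold change within 0.5 of it. For CD83 these were CTDSPL, REEP1 and NEDD9 (Pearson r of 0.9996, 0.9995 and 0.9994 among 591 candidates), for RELB DEGS2 and ZNF223 (0.9934 and 0.9919 among 1510), and for NFKBIA PPP1R12C, EPC2 and FAM168A (0.9994, 0.9990 and 0.9974 among 4406). With 2 groups of 3 libraries, such values mostly reflect the difference between the groups.

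The remaining IkB family genes split by direction, with 2 of 4 higher and 2 lower, beside 38.0% and 37.9% of all genes tested. NFKBIZ, which encodes the nuclear coactivator IkB-zeta, rose to 2.33 ± 0.809 CPM with MYCN shRNA, against 0.716 ± 0.165 CPM with control shRNA (SD, n = 3 each; log2 fold change 1.69 ± 0.289, edgeR adjusted p = 1.7e-06). NFKBIL1 rose by 0.37 ± 0.084 (edgeR adjusted p = 1.5e-04). BCL3, a nuclear IkB protein that binds p50 and p52, fell to 2.45 ± 0.734 CPM with MYCN shRNA, against 3.84 ± 0.494 CPM with control shRNA (SD, n = 3 each; log2 fold change -0.64 ± 0.189, edgeR adjusted p = 0.00231). NFKBID fell by 0.43 ± 0.157 (edgeR adjusted p = 0.0137), a call lost in 5 of the 14 alternatives.

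Genes that carry the signal to NF-kB moved in both directions. Of the kinases and adaptors upstream of or within the IKK complex, 13 of 25 tested rose, 7 fell and 5 did not pass. Their median log2 fold change was 0.20, and over all genes tested 38.0% were higher and 37.9% lower. With library sizes alone 16 of the 25 rose and 3 fell. In the IKK complex itself, the kinase gene CHUK measured 80.5 ± 1.04 CPM with MYCN shRNA and 84.7 ± 4.33 CPM with control shRNA (SD, n = 3 each; edgeR adjusted p = 0.16). IKBKB, the kinase gene of the classical pathway, fell by 0.25 ± 0.0517 (edgeR adjusted p = 3.8e-05), and IKBKG, its regulatory subunit gene, rose by 0.25 ± 0.0703 (edgeR adjusted p = 0.00134). With library sizes alone, CHUK was higher (0.11, edgeR adjusted p = 0.0327) and IKBKB was not called (-0.07, edgeR adjusted p = 0.227).

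RIPK1, a kinase at the TNF receptor, rose to 25.3 ± 0.407 CPM with MYCN shRNA, against 11.2 ± 1.30 CPM with control shRNA (SD, n = 3 each; log2 fold change 1.17 ± 0.0841, edgeR adjusted p = 2.8e-16). The genes of the TAK1 kinase complex were divided: MAP3K7, which encodes the kinase, fell by 0.56 ± 0.0471 and its partner TAB1 by 0.64 ± 0.0662, whereas the partner TAB2 rose by 0.58 ± 0.0463 (edgeR adjusted p of 5.0e-14, 1.5e-11 and 9.7e-15).

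Of 22 receptors listed, 9 passed the filter, of which 5 rose and 2 fell (median 0.51), beside 38.0% higher and 37.9% lower over all genes tested. The number that rose depended on the filter, with 7 higher with no filter and 4 higher at 1 CPM in 3 libraries (edgeR). Among the 5 that rose, LTBR (13, 12 and 16 counts with MYCN shRNA, 5, 2 and 0 with control shRNA) passed the filter through the MYCN shRNA libraries. The same held for IL1RAP (50, 48 and 34 counts with MYCN shRNA, 10, 5 and 7 with control shRNA). TNFRSF1A, the main TNF receptor, rose by 2.12 ± 0.219 to 4.12 ± 0.0414 CPM with MYCN shRNA, against 0.946 ± 0.296 CPM with control shRNA (SD, n = 3 each; edgeR adjusted p = 1.5e-11). TNFRSF11A, the receptor RANK, rose by 0.81 ± 0.0744 (edgeR adjusted p = 6.3e-13), while TNFRSF13C, the BAFF receptor, fell by 1.10 ± 0.126 (edgeR adjusted p = 2.6e-10) and TNFRSF21 by 0.67 ± 0.0627 (edgeR adjusted p = 1.1e-12). Ligands were scarce: 10 of the 11 measured did not pass the filter, and TNF and IL1B had 0 or 1 count in each library. The ligand that passed, IL33, had 18, 15 and 16 counts with MYCN shRNA and 0 counts in all control libraries. It passed the filter only through the MYCN shRNA libraries, so it could not have been called lower. Scaled for depth, its pooled 49 counts were 14.6-fold above a floor of 3 counts set for the control group. This value leaves out the counting error of the 49 counts.

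Of the ubiquitin enzymes and partners of A20, 7 of 19 tested were higher, 7 lower and 5 not called (median 0.01). These shares stand beside 38.0% higher and 37.9% lower over all genes tested. With library sizes alone 12 of the 19 were higher and 5 lower. CYLD, a deubiquitinase that restrains NF-kB, rose to 13.5 ± 0.509 CPM with MYCN shRNA, against 3.64 ± 0.994 CPM with control shRNA (SD, n = 3 each; log2 fold change 1.89 ± 0.133, edgeR adjusted p = 1.8e-16). TRAF3IP2, an adaptor of the IL-17 receptor, rose by 2.30 ± 0.141 (edgeR adjusted p = 1.7e-18). The A20 partners RNF11 and TAX1BP1 fell by 1.08 ± 0.0563 and 0.74 ± 0.0417 (edgeR adjusted p of 9.0e-21 and 8.0e-20), and TNIP1, which also binds A20, did not pass the test (0.08 ± 0.0655, edgeR adjusted p = 0.242).

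Of 32 textbook NF-kB target genes, 25 were measured and 16 tested, of which 9 rose, 2 fell and 5 did not pass (median 0.31). Over all genes tested 38.0% were higher and 37.9% lower. RCAN1, an inhibitor of calcineurin, rose to 38.4 ± 1.63 CPM with MYCN shRNA, against 7.93 ± 1.23 CPM with control shRNA (SD, n = 3 each; log2 fold change 2.28 ± 0.0854, edgeR adjusted p = 8.0e-26). PTGS2, which encodes cyclooxygenase-2, had 45, 39 and 38 counts with MYCN shRNA, against 6, 1 and 2 counts with control shRNA, a depth-scaled ratio of 12.2 (exact 95% interval 6.2 to 27.2). It had the largest log2 fold change of the tested targets and passed the filter through the MYCN shRNA libraries. The targets SOD2 and BCL2L1, with more counts, rose by only 0.43 ± 0.0403 and 0.09 ± 0.0391 (edgeR adjusted p of 9.2e-13 and 0.0369). IRF1, an interferon-responsive transcription factor gene, rose by 1.75 ± 0.162 (edgeR adjusted p = 6.6e-13). The stress-induced gene GADD45B fell to 5.87 ± 0.892 CPM with MYCN shRNA, against 12.3 ± 0.0666 CPM with control shRNA (SD, n = 3 each; log2 fold change -1.07 ± 0.114, edgeR adjusted p = 3.6e-11), and CFLAR, which encodes the caspase-8 inhibitor cFLIP, fell by 0.53 ± 0.0857 (edgeR adjusted p = 5.9e-07). The adhesion gene ICAM1, the cytokine gene IL6 and the inhibitor of apoptosis gene BIRC3 had at most 7, 1 and 2 counts in any library. Over the 6 lists together, 37 of 72 tested genes rose and 20 fell, with a median of 0.19, beside 38.0% and 37.9% of all genes. With library sizes alone 46 rose and 13 fell.

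**Figure D5:**
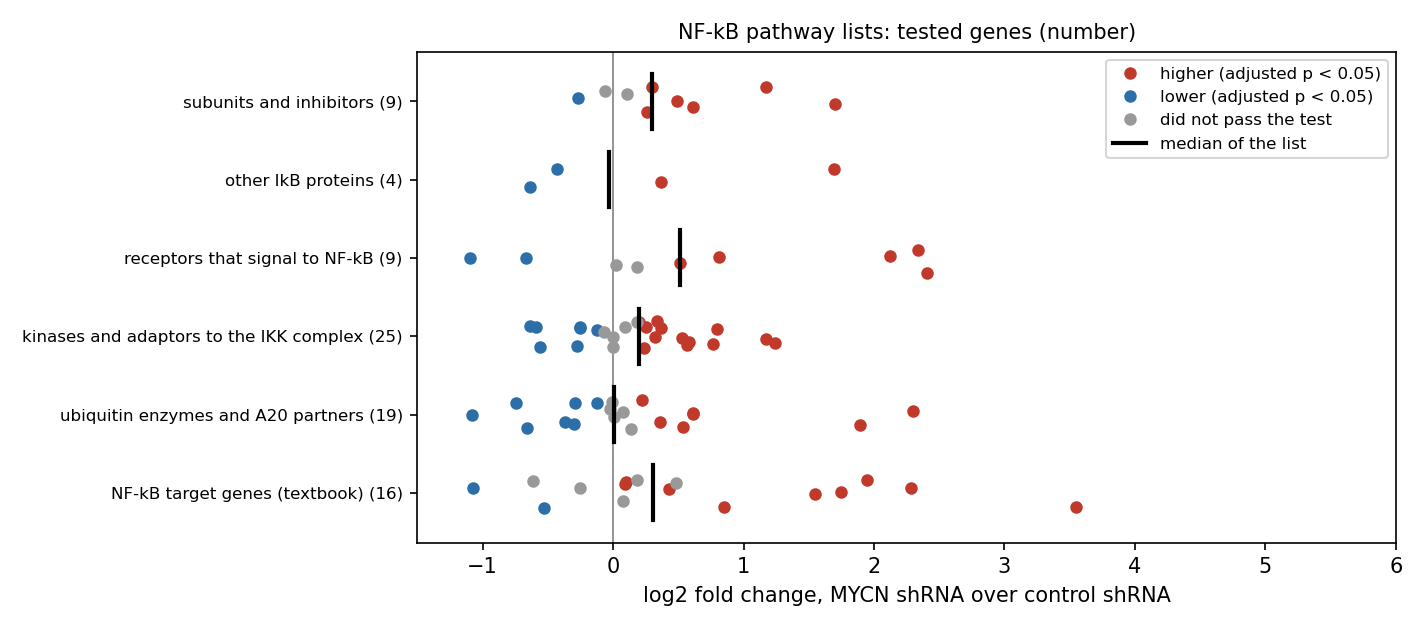
Log2 fold change (horizontal axis, MYCN shRNA over control shRNA) of the tested genes in the members and 5 other NF-kB pathway lists, with the number tested in brackets; red and blue points passed the edgeR test as higher or lower, grey points did not, black bars are list medians, and vertical scatter within a list is for display. Higher and lower genes stand in every list; the ligands, with 1 tested gene, are not drawn.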

How the data were processed

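The authors deposited 1 table of estimated counts per gene symbol and library, named read counts in the file header and not scaled between libraries. Of its values 12.5% to 12.8% per library were not whole. Per the submitters' processing notes the genome was GRCh38. Which aligner, counter, strand option and gene models were used is not given in the sources used here. The table has 17035 lines, of which 22 hold no count and were dropped. Library titles gave the group and the replicate number. No 2 libraries of a group agreed within sampling noise (chi-square per degree of freedom 1.73 to 4.23 over genes with at least 50 counts). Counts were rounded and genes passing filterByExpr (minimum 10 counts; 12819 genes, 99.95% of counts) were fitted with edgeR 4.0.16 in R 4.3.3 (TMM, robust quasi-likelihood F-test, Benjamini-Hochberg at 0.05 over all genes). SE was derived from F. Intervals are exact 95% and cover counting error only. The fit was also run on simulated counts in which few genes changed. Most genes differed in the real data, so the simulation does not test scaling or calls in that setting. Members and lists were chosen with earlier results of these data known.

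Named pathway genes are the 2 with the smallest p per list and direction at 1 CPM or more, plus CHUK, IKBKB, IKBKG, BCL3, NFKBIZ, TNIP1 and CYLD. Genes alike to the 3 members that changed most were ranked by Pearson r of log2(CPM + 0.5). SIRT2, LTBR, IL1RAP, IL33, PTGS2, SOD2, BCL2L1, TNF, IL1B, ICAM1, IL6, BIRC3 and the single marker genes were named after their values were seen. Some genes that these rules or lists name are not reported here. Lengths and positions came from GENCODE 29 (GRCh38) and promoters from RefSeq (GRCh38.p14). Alternatives were RLE, upper quartile and library size scaling, DESeq2 1.42.0, limma-voom (limma 3.58.1), other filters (no filter, or 1 CPM in 3 libraries), a replicate block, each library left out, and the longest transcript. Python 3.11.15, numpy 2.4.6, pandas 2.3.3, scipy 1.17.1 and matplotlib 3.10.9 were used.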

Additional observations from a re-analysis of the deposited data

How the results depend on the processing

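The calls of NFKB2, REL, RELA, RELB, NFKBIA and CD83 as higher and of MYCN as lower were made in all 14 alternatives, and NFKBIB was called lower in 13. With library sizes alone, 0 members were called lower (edgeR, and 0 at an unadjusted p under 0.05), and 13 of the other pathway genes were lower against 20. DESeq2 with its own scaling and limma-voom with TMM each called 1 member lower, NFKBIB. Neither was run with library sizes alone. NFKB1 passed with upper quartile scaling (0.15) and library sizes alone (0.29). NFKBIE, which was not called in any alternative, turned positive with library sizes alone (0.12) and ranged from -0.25 to 0.05 when a library was left out (0.05 without control replicate 2, 0.00 without MYCN shRNA replicate 2 and 0.04 without MYCN shRNA replicate 3); CHUK turned positive with library sizes alone (0.11). NFKBID lost its call with library sizes alone (-0.25), DESeq2 (-0.43) and without control replicate 3 (-0.31), MYCN shRNA replicate 1 (-0.36) or MYCN shRNA replicate 3 (-0.34). TNIP1 passed with library sizes alone (0.27). IKBKB lost its call there (-0.07). Single lists moved by over 1.5 times as follows: with library sizes alone the ubiquitin list had 12 higher against 7 (and 5 lower against 7) and the kinase list 3 lower against 7; the other IkB genes had 1 lower against 2 wherever NFKBID lost its call; the targets had 4 lower against 2 without control replicate 1; and the ligands had 2 higher with no filter and 0 with the 1 CPM filter (edgeR; IL33 was then not tested) against 1. The longest transcript lowered the control levels per kilobase of NFKBIB (10, against 16.7), RELA (9.83, against 11.6) and NFKB2 (5.56, against 6.12). Library sizes alone moved the median of all genes to 0.19, and the cause of the other changes was not tested.

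Same-numbered libraries had correlated deviations of 0.131, 0.115 and 0.0592, not all above 0.1, so the numbers were not taken as pairs, although every library correlated best with its own number. With the replicate block 6 members were higher and 1 lower, 37 and 21 of the other pathway genes, and 4967 and 4939 of all genes. Depth limits TNFAIP3 (log2 fold change 0.79, edgeR adjusted p = 0.432 with no filter), RELB and most ligands.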
